A study of Mus musculus with 11 samples.

Results

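Vip, Sst, Cartpt, Calca, Calcb and Adcyap1 encode the precursors of neuropeptides, and they were followed across the single cells of the mouse stellate ganglion. The reason is that all of them stand higher in the cholinergic cells of cluster 4 of the deposited clustering than in clusters 1 and 2. They are 6 of the 19444 genes in the deposited table, and all 6 were taken by name. Cells came from 6 male C57BL/6J mice aged 6 to 8 weeks. Every mouse had cholera toxin subunit B tracers injected, CTB-488 into the forelimb and CTB-555 into the interscapular brown fat (iBAT), and ganglia were taken 3 days later. Each of 3 sets holds the ganglia of 2 mice together, and the set is the replicate throughout (n = 3). No uninjected animals were analysed here, so all cells share the tracers and the dissociation. The table holds 878 of 1039 collected cells on 11 plates, in 4 clusters that the authors numbered and did not name: 388 cells in cluster 1, 335 in cluster 2, 101 in cluster 3 and 54 in cluster 4.

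Sympathetic ganglia hold mostly noradrenergic neurons, and a minority of their neurons release acetylcholine. The classical cholinergic sympathetic neurons supply sweat glands and are known for vasoactive intestinal peptide (VIP), calcitonin gene-related peptide and, in part, somatostatin. A neuropeptide is cut from a precursor protein, stored in dense core vesicles beside the classical transmitter, and acts on G protein-coupled receptors. VIP and PACAP, the product of Adcyap1, share receptors. Calca and Calcb encode the alpha and beta forms of calcitonin gene-related peptide, Cartpt encodes the precursor of CART peptides, and Sst encodes somatostatin.

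Cluster 4 carried the markers of cholinergic neurons. The vesicular acetylcholine transporter gene Slc18a3 had counts in 52 of its 54 cells, against 17 of 388 cells in cluster 1 and 36 of 335 in cluster 2. Chat, which makes acetylcholine, had counts in 38 of the 54 cells. Th, which makes catecholamines, still had counts in all 54. Markers of sensory neurons were near 0 where they are specific: Scn11a had counts in 2 and Piezo2 in 1 of the 54 cells, and Trpv1 in none. The summed level of 9 glial and Schwann cell markers ranged over the sets from 11.9 to 30.8 counts per 10000 in cluster 4 and from 6.05 to 16.9 in clusters 1 and 2. Cells held a median of 35488.5 counts in cluster 4 (10842 to 81888), 28396 in cluster 1 and 40121 in cluster 2. Cluster 3 is a mixture of 48 deep cells with a median of 68058 counts and 53 shallow cells with a median of 2658, and these are given separately. The same 96 cell barcodes were used on the plates, and all 96 occur on more than 1 plate.

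The promoters of the members are shown because Sst and Cartpt were counted in the same cells, as described below, and both genes are known to respond to cyclic AMP through a cyclic AMP response element (CRE). The sequences are the 250 bases before the transcription start in the RefSeq promoter table, build GRCm38.p6, read 5′ to 3′ on the gene's strand, with the motif in capitals. Sst (chr16:23890845-23891094, minus strand) and Cartpt (chr13:99900684-99900933, minus strand) hold the full palindrome TGACGTCA. Vip (chr10:5638968-5639217, plus strand) and the first of the overlapping Adcyap1 windows (chr17:93198767-93199016, plus strand) hold the shorter TGACGT, which is part of the palindrome.
Sst: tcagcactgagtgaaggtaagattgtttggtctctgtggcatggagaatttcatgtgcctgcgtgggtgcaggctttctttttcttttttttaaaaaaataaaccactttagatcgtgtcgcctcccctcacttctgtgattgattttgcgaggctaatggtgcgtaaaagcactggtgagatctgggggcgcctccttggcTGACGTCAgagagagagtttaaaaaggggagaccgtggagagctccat
Cartpt: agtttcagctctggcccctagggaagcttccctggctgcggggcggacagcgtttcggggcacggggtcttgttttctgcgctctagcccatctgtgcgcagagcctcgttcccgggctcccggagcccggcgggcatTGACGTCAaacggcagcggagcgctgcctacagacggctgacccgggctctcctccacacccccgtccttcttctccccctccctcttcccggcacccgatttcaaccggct
Vip: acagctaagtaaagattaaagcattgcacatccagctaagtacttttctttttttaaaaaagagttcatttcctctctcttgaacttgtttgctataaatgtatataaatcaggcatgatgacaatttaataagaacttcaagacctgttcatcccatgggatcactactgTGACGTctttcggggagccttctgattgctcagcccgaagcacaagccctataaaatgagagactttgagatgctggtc
Adcyap1: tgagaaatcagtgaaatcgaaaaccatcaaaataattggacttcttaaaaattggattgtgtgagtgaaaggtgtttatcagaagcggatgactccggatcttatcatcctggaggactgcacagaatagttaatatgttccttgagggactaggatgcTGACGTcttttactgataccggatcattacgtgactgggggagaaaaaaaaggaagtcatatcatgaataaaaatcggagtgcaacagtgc
The palindrome starts 48 bases upstream of the start site of Sst and 112 bases upstream of that of Cartpt. The shorter motif starts 79 bases upstream in Vip and 91 bases upstream in Adcyap1. The other Adcyap1 window (chr17:93198918-93199167, plus strand) holds the same copy, 242 bases upstream of its own start. Over both strands, 1.55% of all 32851 promoter windows of this length hold TGACGTCA and 6.47% hold TGACGT, the first counted within the second. The Calca window (chr7:114636358-114636607, minus strand) holds neither. Promoter entries matched 5 of the 6 members, Calcb being the exception. GENCODE M21 places the start of Sst 114 bases and that of Cartpt 408 bases farther upstream than RefSeq does. The whole printed Cartpt window and the palindrome of Sst therefore lie within the GENCODE genes. A match of letters is a description of the sequence and not a bound site.

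Vip was the most abundant member of cluster 4 and was present in nearly every cell. Its level was 57.8, 54.8 and 49.6 counts per 10000 in Sets 1, 2 and 3 (54.1 ± 4.1, SD, n = 3). Single cells ranged from 0.478 through a median of 53.4 to 131 counts per 10000, and all 54 had at least 1 count. In clusters 1 and 2 the set means were 0.215 ± 0.120 and 0.232 ± 0.089 (SD, n = 3), so the sets of cluster 4 did not overlap with them. The clusters were made from these same cells and the members were chosen for their pattern over them, so levels by cluster are given as a description with no test. Levels are counts per 10000 counts of a cell, taken at 3′ ends, and were not divided by gene length. Vip lies on chromosome 10 (5639218 to 5647617, GRCm38, GENCODE M21).

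Cartpt was the next most abundant and uneven between sets. Its level in cluster 4 was 12.6, 28.1 and 14.7 counts per 10000 in the 3 sets (18.5 ± 8.4, SD, n = 3), with Set 2 highest. Clusters 1 and 2 held 0.0948 ± 0.0989 and 0.118 ± 0.106. Within cluster 4 the cells ranged from 0 to 110 counts per 10000 with a median of 2.66, and 7 of the 54 had no count. The 10 cells with most Cartpt held 70.0% of all its counts in the cluster, against 41.1% for Vip. Cartpt lies on chromosome 13 (99898489 to 99901091).

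Sst was confined to a minority of cluster 4 cells, in which it could be high. The set means were 5.14, 5.11 and 2.67 counts per 10000 (4.31 ± 1.42, SD, n = 3). Counts were seen in 18 of 54 cells, 36 cells had none, and the highest cell reached 61.7 counts per 10000. The 10 highest cells held 93.8% of the Sst counts. Sst lies on chromosome 16 (23889573 to 23890958).

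The 2 genes for calcitonin gene-related peptide were lower. Calcb had 1.399, 1.379 and 2.055 counts per 10000 in the 3 sets (1.61 ± 0.38, SD, n = 3) and counts in 40 of 54 cells. Calca had 0.420, 1.77 and 0.570 (0.919 ± 0.738, SD, n = 3) and counts in 23 cells, and Set 2 again stood highest. Without Set 2 the Calca level was 0.495. The 5 highest cells held 73.6% of the Calca counts and 36.6% of the Calcb counts. The genes are neighbours on chromosome 7, Calca at 114631478 to 114636357 on the minus strand and Calcb at 114718643 to 114723365 on the plus strand, 82285 bases apart. They are close paralogs, so the split of reads between them is uncertain at 3′ ends.

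Adcyap1 was the lowest member. Its level in cluster 4 was 0.311, 0.454 and 0.597 counts per 10000 (0.454 ± 0.143, SD, n = 3). Counts were seen in 28 of the 54 cells, and the highest cell had 3.91. Adcyap1 lies on chromosome 17 (93199017 to 93206537). The order of the mean levels in cluster 4 was Vip, Cartpt, Sst, Calcb, Calca and Adcyap1. Vip and Cartpt did not overlap over the sets with the members below them. The lowest set of Sst lay above the highest of Calcb, while the ranges of Calcb and Calca overlapped, as did those of Calca and Adcyap1.

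**Figure D1:**
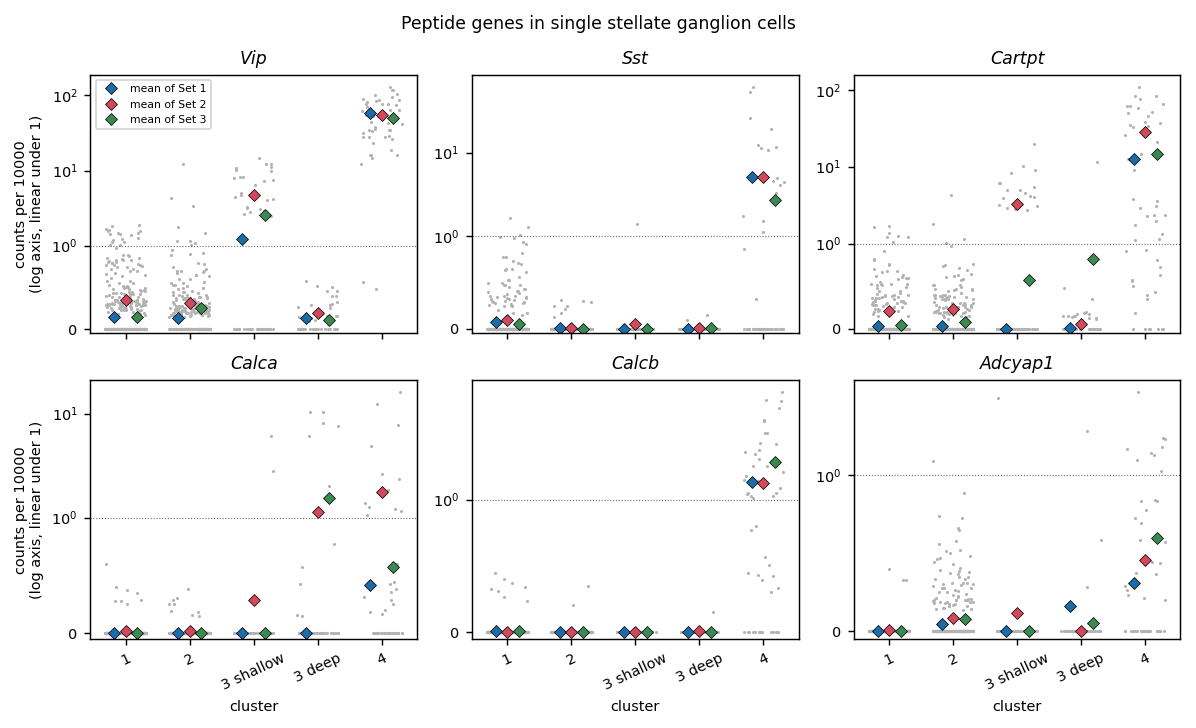
Level of each peptide gene in counts per 10000 (vertical axis, logarithmic above 1 and linear below) in every cell, by cluster with cluster 3 divided by depth. Grey points are cells, coloured diamonds are the means of Sets 1 to 3, and the dotted line is 1 count per 10000. Vip in cluster 4 stands at 49.6 to 57.8 in the 3 sets, while the highest Calca cell is at 16.05 in cluster 4 and at 10.4 in the deep cells of cluster 3.

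A cell was called positive for a member at 1 or more counts per 10000. By this rule 52 of the 54 cluster 4 cells were positive for Vip, 35 for Cartpt, 30 for Calcb, 16 for Sst, 12 for Calca and 9 for Adcyap1. Peptide genes were combined in most cells: 6 cells were positive for 1 member, 16 for 2, 18 for 3, 8 for 4 and 6 for 5. The commonest combinations were Vip with Calcb, Vip with Cartpt and Calcb, and Vip with Sst and Cartpt, each in 7 cells. Vip with Cartpt alone was seen in 6 cells, and Vip, Sst, Cartpt, Calca and Calcb together in 5, of which 4 were in Set 2. Vip alone was seen in 4 cells. Every cell positive for Sst, Cartpt, Calca or Calcb was also positive for Vip, which describes these cells and is a weak statement where Vip was positive in 52 of 54.

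**Figure D2:**
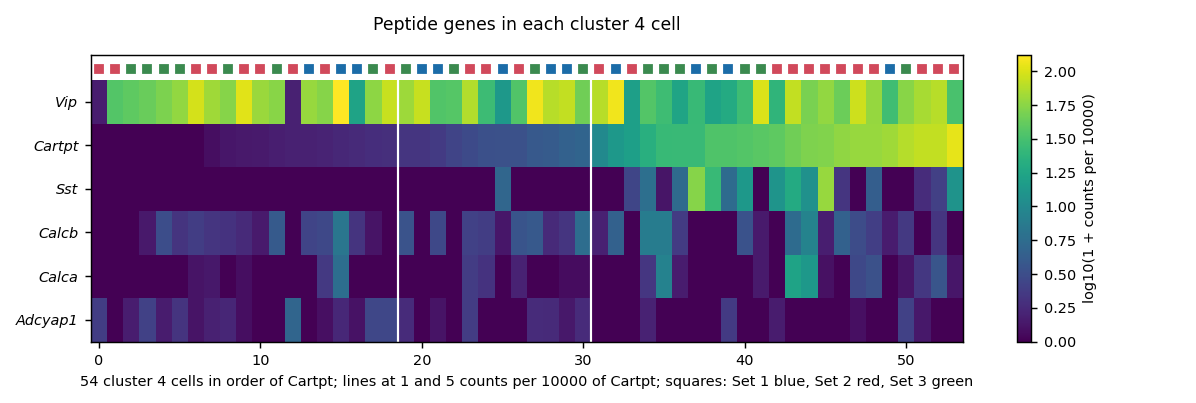
The 54 cluster 4 cells in columns, ordered by Cartpt, with log10(1 + counts per 10000) of each gene as colour and the set as a coloured square on top. White lines divide 19 cells under 1, 12 cells from 1 to under 5 and 23 cells at 5 or more counts per 10000 of Cartpt. Sst is seen in the right-hand block, while Vip and Calcb run through all 3.

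Sst was nested within Cartpt. All 16 Sst positive cells were also Cartpt positive (100%, exact binomial 95% interval 79.4 to 100), in Set 1 (3 of 3), Set 2 (9 of 9) and Set 3 (4 of 4). In the other direction 16 of 35 Cartpt positive cells were Sst positive (45.7%, interval 28.8 to 63.4). The 19 cells that were not positive for Cartpt had 0 Sst counts among 683863 counts, against 768 Sst counts in the 35 Cartpt positive cells. By summed counts Sst was at least 130.7-fold higher in the Cartpt positive cells, taking 3 counts over the 19 cells as the floor. These intervals and floors cover counting error only, and cells of a set are not separate replicates.

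The Cartpt values themselves fell apart into a low and a high range, with no cell between 3.84 and 9.08 counts per 10000. Of the 23 cells above that gap 15 were Sst positive and 17 had at least 1 Sst count, and they held 756 of the 768 Sst counts. Of the 12 cells at 1 to under 5 counts per 10000, 1 was Sst positive. High Cartpt did not always come with Sst: 6 of the 23 cells had no Sst count, at 9.08 to 76.0 counts per 10000 of Cartpt. Over the 54 cells Pearson's r of ln values centred on the set was 0.613 for Sst and Cartpt. The cells share libraries and sets, so r is a description. The division at 5 was chosen after the values were seen.

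Cartpt positive and other cluster 4 cells were compared within each set with limma, which models each gene and borrows its spread from all genes. Sst was higher in Cartpt positive cells by 1.17, 1.86 and 1.27 in Sets 1, 2 and 3 as a difference of mean log2(1 + counts per 10000). The fitted difference was 1.43 ± 0.13 (SE, limma adjusted p = 5.4e-25), and it remained called under every alternative that was run (adjusted p 1.2e-31 to 0.0016). The side that is not positive for Cartpt had a mean Sst level of 0 in all 3 sets, so it brought no spread to this fit. Neither this p-value nor those of the alternatives, which reuse the same cells, is evidence beyond the counts given above. As one side has no Sst count, this fitted value depends on the pseudocount and is no bound on the fold. With 2 residual degrees of freedom per gene, the fit used a median of 20930 degrees of freedom, so the size of p rests almost wholly on spread borrowed from other genes. The agreement of the 3 sets is the direct measurement: 3 sets with the same sign reach at best a 2-sided exact p of 0.25. In this comparison 1.58% of the 10464 other genes tested were called, and of the other 5 members 1 was called.

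The reverse comparison, Sst positive against other cluster 4 cells, also gave higher Cartpt in each set. The differences were 1.81, 4.07 and 3.08 in the 3 sets on the log2 scale, with mean levels of 35.5 ± 19.0 against 10.5 ± 0.6 counts per 10000 (SD, n = 3). The fit did not call it (2.99 ± 0.65, SE, limma adjusted p = 0.36), since Cartpt spread widely between sets and kept 2.00 degrees of freedom of its own. Of 10430 genes, 3.37% were called, and none of the other 5 members was among them. Cartpt was called in 6 of 12 alternatives, among them the fit without the block (adjusted p 0.012), without Set 1 and without Set 2. Sst positive cells had a median depth of 29095.5 counts against 36614.5 in the other cells, and glial and Schwann cell markers summed to 20.0 to 26.1 against 8.85 to 32.2 counts per 10000 over the sets; their part in the result was not tested.

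Vip tended to be lower in Sst positive cells, with differences of -1.64, 0.20 and -1.21 in the 3 sets, and this was not called (-0.88 ± 0.56, SE, limma adjusted p = 0.71). It was called lower in 4 of 12 alternatives, including the one without the 2 cells of low Vip described below (adjusted p = 0.013) and that without Set 2 (1.4e-28). Between Cartpt positive and other cells Vip averaged 52.5 ± 2.9 against 58.5 ± 9.7 counts per 10000, and the fit gave 0.06 ± 0.13 (limma adjusted p = 0.95). Without the 2 cells of low Vip the direction turned to -0.34 and the fit called it (limma adjusted p = 4.7e-09). Both cells lie on the side that is not positive for Cartpt.

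**Figure D3:**
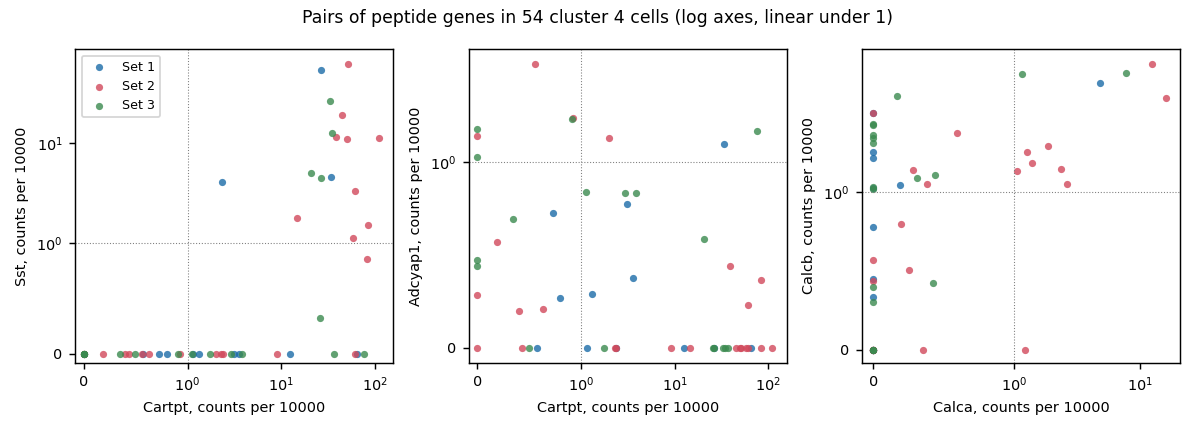
Counts per 10000 of pairs of peptide genes in the 54 cluster 4 cells on axes that are logarithmic above 1 and linear below, with Sets 1 to 3 in blue, red and green and dotted lines at 1. All 16 Sst positive cells lie to the right of the Cartpt line, 6 of 9 Adcyap1 positive cells lie to its left, and 11 of 12 Calca positive cells lie above the Calcb line.

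Calca was nested within Calcb in a similar way. Of the 12 Calca positive cells 11 were Calcb positive (91.7%, exact binomial 95% interval 61.5 to 99.8), against 19 of the 42 other cells (45.2%, interval 29.8 to 61.3). The exception was a Set 2 cell with 1.22 counts per 10000 of Calca and no Calcb count, at the greatest depth in the cluster, 81888 counts. The set counts were 1 of 1, 8 of 9 and 2 of 2, so 9 of the 12 Calca positive cells came from Set 2. Pearson's r over the 54 cells was 0.645, the highest of the 15 pairs of members.

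In Calcb positive cells Calca was higher in every set, by 0.47, 1.32 and 0.36 on the log2 scale. Its mean level was 1.67 ± 1.46 against 0.0799 ± 0.0848 counts per 10000 (SD, n = 3). The fit did not call it (0.71 ± 0.16, SE, limma adjusted p = 0.77), and 7 of 11 alternatives did, from 0.045 without the expression filter to 2.2e-08 with voom weights on summed counts. Vip was also higher in each set, by 0.85, 1.11 and 0.11, at 62.3 ± 11.8 against 45.6 ± 3.5 counts per 10000, and not called (limma adjusted p = 0.21; called in 4 of 11 alternatives). None of the other 5 members was called, beside 0.0192% of 10429 genes. Calcb positive cells were deeper, with a median of 40693 counts against 29240, and the part of depth was not tested.

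Reads of the paralogs do separate in other cells. In the 48 deep cells of cluster 3, Calca was positive in 6 cells, up to 10.4 counts per 10000, while Calcb had a count in 1 cell, at 0.151. Set means of Calca there were 0, 1.15 and 1.55 counts per 10000, which overlap with those of cluster 4. Slc18a3 was positive in none of these 48 cells and Th in all of them. Calca was thus shared with deep cluster 3 cells, and Calcb had no positive cell outside cluster 4.

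No difference of Calcb or Calca by Cartpt or Sst was called. Calcb was positive in 20 of 35 Cartpt positive cells (57.1%) and in 10 of 19 others (52.6%), and in 8 of 16 Sst positive cells (50.0%) and 22 of 38 others (57.9%). The exact binomial intervals overlap, and they are wide enough that a sizeable difference would not be detectable with these cells. Calca was positive in 10 of 35 Cartpt positive cells (28.6%) and in 2 of 19 others (10.5%), and in 5 of 16 Sst positive cells (31.2%) and 7 of 38 others (18.4%). By limma, Calcb differed by 0.05 ± 0.24 and Calca by 0.22 ± 0.52 between Cartpt positive and other cells (adjusted p 0.99 and 0.97), and sets disagreed in sign for both genes. Each was called higher in Cartpt positive cells without Set 1 (limma adjusted p = 0.0026 for Calcb and 6.0e-07 for Calca), 1 of 12 alternatives. By Sst, Calca differed by 0.21 ± 0.13 (limma adjusted p = 0.55) and was called higher in 2 of 12 alternatives, dividing at 1 count (0.016) and with voom weights (0.0067).

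Adcyap1 leaned towards the cells without Cartpt. It was positive in 6 of 19 cells that were not Cartpt positive (31.6%, interval 12.6 to 56.6) and in 3 of 35 that were (8.6%, interval 1.8 to 23.1). Of these 6 cells, 2 are the Set 2 cells of low Vip described below, and without them the share was 23.5% and the fitted difference -0.24 (limma adjusted p = 0.435). Cells with at least 1 Adcyap1 count numbered 15 of 19 under 1 count per 10000 of Cartpt, 7 of 12 in the middle range and 6 of 23 in the high range. The means by set were 0.296 ± 0.130 against 0.714 ± 0.333 counts per 10000 (SD, n = 3), and the set differences were -0.06, -0.57 and -0.40. The fit did not call the difference (-0.34 ± 0.11, SE, limma adjusted p = 0.11). It was called with Cartpt divided at 5 counts per 10000 (limma adjusted p = 0.041) and without Set 1 (0.0084). With Sst the pattern was alike: 1 of 16 Sst positive cells and 8 of 38 others were Adcyap1 positive, and the difference of -0.32 ± 0.12 was not called (limma adjusted p = 0.16), Set 1 differing in sign. It was called in 2 of 12 alternatives, with voom weights (0.0029) and without Set 1 (0.0018). The pairs are not exclusive, since 1 cell of Set 1 was positive for Adcyap1, Sst and Cartpt together.

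**Figure D4:**
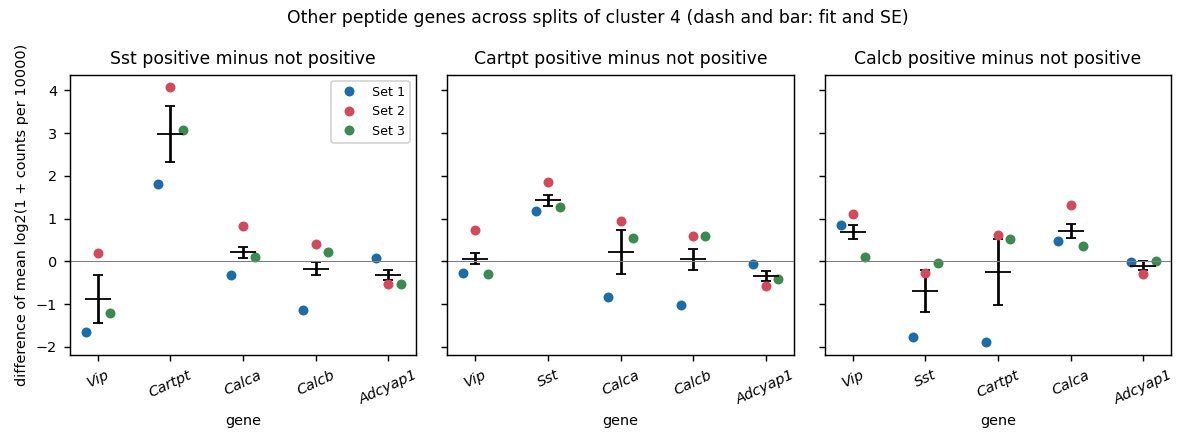
Difference of mean log2(1 + counts per 10000) of each other peptide gene between cluster 4 cells positive and not positive for Sst, Cartpt or Calcb. Coloured points are the sets, and the dash with its bar is the limma estimate with its SE. Sst is above 0 in all 3 sets in the middle panel, and the sets disagree in sign for Vip, Calca and Calcb there.

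The highest Adcyap1 value belonged to one of 2 cells that stood apart from the rest of cluster 4. Both were in Set 2, on different plates, and had 0.478 and 0.559 counts per 10000 of Vip, where the next lowest cell had 12.4. Neither had a count of Slc18a3 or of the choline transporter gene Slc5a7, and both had low Snap25, which encodes a synaptic vesicle fusion protein (4.94 and 4.19 counts per 10000, against 12.5 to 38.2 in the other 52 cells). Their Adcyap1 was 1.43 and 3.91, against at most 1.84 elsewhere in the cluster. Neither was positive for any other member. At 62790 and 35804 counts they were not shallow.

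The same 2 cells were the Atf3 positive cells of cluster 4. Atf3, a transcription factor gene known to be induced in axotomised neurons, stood at 11.1 and 12.8 counts per 10000 in them, while 42 of the other 52 cells had none and the highest had 0.968. Gap43, which encodes a growth cone protein, was 50.3 and 51.7 against 11.1 to 33.9 in the others. Sprr1a, another gene linked to axon regrowth, was 34.1 in one and 0 in the other, with counts in 2 of the other 52 cells. Gal, the galanin gene, was looked at with them and did not stand apart. It was 2.71 and 5.59 in the 2 cells, against a median of 1.52 and at most 11.1 in the others. Atf3 positive cells were also seen outside cluster 4: 6 among 48 deep cluster 3 cells, 16 among 53 shallow ones and 1 each in clusters 1 and 2. The shallow cells held at most 9804 counts, so 1 Atf3 count alone made such a cell positive, and their share cannot be set beside the others. One deep cluster 3 cell of Set 1 had 2.08 counts per 10000 of Adcyap1 with 12.3 of Atf3 and 29.9 of Sprr1a. None of the other Atf3 positive cells outside cluster 4 was Adcyap1 positive. The Adcyap1 positive cells of cluster 2 and of the shallow cluster 3 cells, 1 each, had no Atf3 count. Within cluster 4, 2 of the 9 Adcyap1 positive cells were Atf3 positive. These genes were looked at after the Vip values of the cells were seen, and 2 cells from 1 set give no test.

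Without these 2 cells, Vip in cluster 4 had 12.4 counts per 10000 or more in every cell. The correlation of Vip with other genes depended on them. Over all 54 cells the genes most like Vip were Slc18a3 (r = 0.73), Htr3a, a serotonin-gated channel gene (0.71), Cpne8 (0.69) and Slc5a7 (0.67), and those most unlike it were Gap43 (-0.78) and Atf3 (-0.76). Without the 2 cells r fell to 0.48 for Slc18a3, to 0.35 for Htr3a and to -0.14 for Atf3, while Slc5a7 and Cpne8 stood at 0.61 each. The most like genes were then Smim3 (0.62), Slc5a7, Cpne8 and Map1b (0.60), and the least like Slc31a1 (-0.67) and Cplx2 (-0.64). Likeness was ranked over 10248 genes with a count in at least 10 cluster 4 cells, from ln values centred on the set, with no p.

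By the same measure Sst was most like Gda (r = 0.82), the somatostatin receptor gene Sstr2 (0.77), Zcchc12 (0.72) and Sh3gl3 (0.72), and least like Cd63 (-0.75) and its pseudogene Cd63-ps (-0.72), which may share reads. Cartpt was most like Ncald, a neuronal calcium sensor gene (0.79), 1500009L16Rik (0.73), Colq, which encodes the collagen tail of acetylcholinesterase (0.73), and Pde1a (0.73). Scg2, which encodes a granin of dense core vesicles (-0.81), and Tgfb1 (-0.77) were least like it. Calca was most like Calcb, Areg (0.63), Rerg (0.62) and Taco1os (0.56), and Calcb was most like Calca, Taco1os (0.52), Tmem100 (0.50) and Lmtk2 (0.48). Negative partners were weaker for these, Ncam1 (-0.52) and Nbl1 (-0.49) for Calca, and Gm7936 (-0.43) and Atp13a1 (-0.43) for Calcb.

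Over the 9 means of 3 sets in clusters 1, 2 and 4, ranked among 10723 genes, the pattern of Vip was closest to Zbtb7c, Stard10 and Ppp1r1c (each r = 1.00). Sst was closest to Cnr1, Serpinb1a and Slc5a7, Cartpt to Slc5a7, Lgals3 and Fam122b, Calca to Chst2, Abca1 and Tet2, Calcb to Cdkn1a, Igsf21 and Ccl2, and Adcyap1 to Ecm1, Arrb1 and Lrrtm1 (r 0.98 to 1.00). These 9 points are 3 clusters measured 3 times, so any gene high in cluster 4 alone has an r near 1.

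Other genes differed between the Sst positive and other cluster 4 cells. The 3 with the smallest p among those higher in all 3 sets were Crip1 (39.3 ± 2.3 against 16.2 ± 3.8 counts per 10000), 6330403K07Rik (11.8 ± 0.8 against 3.31 ± 1.36) and Gda, a guanine deaminase gene (3.47 ± 0.27 against 0.304 ± 0.037; SD, n = 3). Among those lower in all 3 sets they were Th (6.80 ± 1.10 against 31.1 ± 10.2), Cd63, a tetraspanin gene (0.624 ± 0.025 against 5.62 ± 0.37), and Thy1, a neuronal surface protein gene (0.854 ± 0.264 against 5.88 ± 0.23). The sets did not overlap for any of these 6. All were called (limma adjusted p 7.6e-70 to 2.1e-26) and remained called in every alternative run. They were picked among called genes with one sign in all 3 sets, so the calls and the shared sign follow from the choice. With 2 residual degrees of freedom per gene and a median of 20862 in the fit, the size of p rests almost wholly on borrowed spread. In all, 167 genes were higher and 185 lower.

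Between Cartpt positive and other cells 93 genes were higher and 72 lower. Beside Sst, Crip1 (28.0 ± 5.0 against 12.6 ± 2.0 counts per 10000) and Ncald (3.21 ± 0.52 against 0.441 ± 0.082) were higher. Th (18.5 ± 6.1 against 35.4 ± 13.9), Cdkn1a, a cell cycle inhibitor gene (2.76 ± 0.76 against 6.58 ± 1.81), and Thy1 (3.48 ± 0.74 against 6.28 ± 0.69) were lower. Crip1, Cdkn1a and Th each missed the threshold with cells divided at 3 counts per 10000, and Th also at 5. For Th the group ranges overlapped although it was lower in each set. The 16 Sst positive cells sit inside the 35 Cartpt positive ones, so the 2 comparisons share cells. Between Calcb positive and other cells 2 genes passed: Ldha was higher by 0.71 and Maoa lower by 0.73 on the log2 scale (limma adjusted p = 0.047 for each). Ldha was called in 4 and Maoa in 2 of 11 alternatives.

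Other genes of peptide and transmitter biology were counted from lists drawn up with earlier results known, leaving out the members. Of 7 other peptide precursor genes tested, 2 were higher in Sst positive cells and none lower: Edn3 (4.39 ± 2.20 against 0.505 ± 0.238 counts per 10000), the endothelin precursor gene, and Pdyn (1.22 ± 1.24 against 0.0214 ± 0.0371), the dynorphin precursor gene, which had counts in 8 of 54 cells and none in Set 1. The median log2 difference was 0.20, against -0.00 over all genes. Of 12 genes for processing and storage, Chga (3.51 ± 0.87 against 0.934 ± 0.036) and Pcsk1n were higher and Scg2 (0.277 ± 0.077 against 3.51 ± 0.78) lower, with a median of -0.02. Of 4 peptide receptor genes, Sstr2 (1.21 ± 0.58 against 0.0714 ± 0.0656) and Ramp1, a subunit of the receptor for calcitonin gene-related peptide (3.19 ± 1.44 against 0.960 ± 0.117), were higher. All named here were called by limma.

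In the same comparison the transmitter genes moved in both directions. Of 7 cholinergic genes, Colq and Prima1, which anchor acetylcholinesterase, were higher, and Slc5a7, the choline transporter gene, was lower (0.771 ± 1.05 against 2.75 ± 0.62 counts per 10000). Of 9 noradrenergic genes, Dbh (9.72 ± 1.48 against 5.71 ± 0.52), Maoa and Slc18a2 were higher while Th was lower. Of 10 transcription factor genes, Isl1 was higher and Hmx1 lower. None of 6 receptor genes for gp130 and GDNF family ligands and none of 9 genes of the CRE pathway passed, with medians of -0.07 and -0.05. Between Cartpt positive and other cells, Edn3, Pdyn, Sstr2, Colq, Prima1 and Dbh were again higher and Scg2 and Th lower, and none of the transcription factor, gp130 and GDNF or CRE lists had a called gene.

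The same lists set cluster 4 apart from the mean of clusters 1 and 2, where 24.7% of 10564 genes were called. Since the clusters were made from these cells, these counts describe how steadily genes differed over the 3 sets and test nothing. A gene called against this mean can still stand close to 1 of the 2 clusters. Edn3, called higher, stood at 1.56 ± 0.48 counts per 10000, against 0.0686 in cluster 1 and 1.44 in cluster 2. Colq, also called higher, stood at 0.585 ± 0.216, against 0.0468 and 0.610. Of 9 other peptide genes 2 were higher and 5 lower: Vgf was higher (1.08 ± 0.17 counts per 10000, against 0.333 and 0.784 in clusters 1 and 2), and Adm (0.0136 against 1.47 and 0.469), Agrp and Gal (2.08 ± 0.77 against 53.8 and 10.1) were lower. Of 12 processing genes 2 were higher and 6 lower. Pam, which amidates peptides such as VIP, stood at 4.11 ± 0.80 against 3.91 and 2.19, and the convertase gene Pcsk2 at 0.457 ± 0.181 against 2.82 and 1.47. Chgb and Scg2 were also lower. Their median difference was -0.12 on the log2 scale, against -0.00 for all genes.

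Of 4 peptide receptor genes, Sstr2 was higher (0.375 ± 0.155 against 0.0381 and 0.0715 counts per 10000) and Ramp1 and Adcyap1r1, the PACAP receptor gene (0.678 ± 0.065 against 1.14 and 1.35), were lower. Of 7 cholinergic genes 5 were higher, led by Slc18a3, Prima1, Chat and Slc5a7, and all 9 noradrenergic genes were lower, led by Slc6a2 (1.67 ± 0.86 against 16.4 and 21.6), Dbh, Th and Maob. Of 7 receptor genes for gp130 and GDNF family ligands, Gfra2 (1.90 ± 0.11 against 0.0601 and 0.992), Ret and Lifr were higher and Gfra3 and Il11ra1 lower. Sox11 was higher and 6 of 10 transcription factor genes were lower, among them Isl1, Hmx1 and Gata2. Of 9 CRE pathway genes 2 were higher and none lower: Crem (1.34 ± 0.09 against 0.491 and 0.377) and Creb5 (0.230 ± 0.165 against 0.00531 and 0.000541), both transcription factor genes of the CREB family.

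Outside cluster 4 the members were scarce, and their low levels did not all look alike. Vip counts were seen in 155 of 388 cluster 1 and 144 of 335 cluster 2 cells, and Cartpt counts in 75 and 91. In all of these the sets ran in parallel: thinned to 15000 counts per cell, Vip was seen in 21.2%, 35.3% and 19.3% of cluster 1 cells and in 15.4%, 30.2% and 13.6% of cluster 2 cells in Sets 1, 2 and 3. Set 2 was highest in both clusters. Set 2 held 24 cluster 4 cells, against 12 in Set 1 and 18 in Set 3. The cDNA of a plate was pooled before amplification, and whether these counts come from the cells themselves or from other wells was not tested. By plate, the mean Vip count in clusters 1 and 2 rose with the Vip counts of cluster 4 cells in Set 1. There it ran from 0.184 on plate 4, with 279 such counts, to 0.652 on plate 1, with 983. Within Set 2 it ran from 0.515 on plate 7, with 674, to 1.39 on plate 6, with 2333. Set 3 ran otherwise, with 1.2 on plate 11, with 482, 0.283 on plate 10, with 943, and 0.619 on plate 9, with 1623. Mean Cartpt was lowest on plate 1 (0.0145, with 22 Cartpt counts in cluster 4) and highest on plate 5 (0.956, with 1115). Cells of clusters 1 and 2 that share a barcode with a cluster 4 cell of some plate averaged 0.809 Vip counts, against 0.630 in the others, while the share with a Vip count was 41.2% against 41.5%. For Sst (0.0903 against 0.168) and Cartpt (0.318 against 0.363) the means stood the other way.

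The share of cells with a count differed between clusters 1 and 2 for Sst and Adcyap1, in opposite directions. Sst had counts in 58 of 388 cluster 1 cells and in 8 of 335 cluster 2 cells, although cluster 2 cells were deeper. Thinned to 15000 counts, with 21 shallower cells of cluster 1 and 12 of cluster 2 left out, it was seen in 9.26% (exact binomial 95% interval 6.50 to 12.7) and 0.619% (0.0751 to 2.22). Adcyap1 had counts in 3 of 388 cluster 1 cells and 70 of 335 cluster 2 cells, and after thinning in 0.817% (0.169 to 2.37) and 7.43% (4.82 to 10.9). Each direction held in all 3 sets. For Sst the thinned shares were 8.90%, 12.0% and 5.68% against 0%, 1.89% and 0%, and for Adcyap1 0.685%, 1.504% and 0% against 5.15%, 9.43% and 8.64%. The sets of the 2 clusters did not overlap for either gene, but how many of all genes separate in this way was not counted. The limma fit given below called neither gene.

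The counts of Sst and Adcyap1 also stood in different ratios to Vip. Cluster 4 held 6.83 Sst counts and 0.809 Adcyap1 counts per 100 Vip counts. Cluster 1 held 38.9 and 1.28, and cluster 2 held 3.32 and 38.7. For Cartpt the values were closer, 36.4 in cluster 4, 47.9 in cluster 1 and 50.9 in cluster 2. The levels were very low, 0.0724 ± 0.0222 counts per 10000 for Sst in cluster 1 and 0.0715 ± 0.0197 for Adcyap1 in cluster 2 (SD, n = 3), and no cluster 1 cell exceeded 1.64 counts per 10000 of Sst. On the mean log2 scale limma, in a comparison added after the values were seen, did not call either gene (0.07 ± 0.06 for Sst, adjusted p = 0.63, and -0.08 ± 0.04 for Adcyap1, adjusted p = 0.31, where 8.86% of 10564 genes were called). With voom weights on summed counts both were called (adjusted p 2.0e-08 and 1.9e-08). The other members were rare in both clusters: Calca had counts in 8 and 9 cells, and Calcb in 8 and 2.

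**Figure D5:**
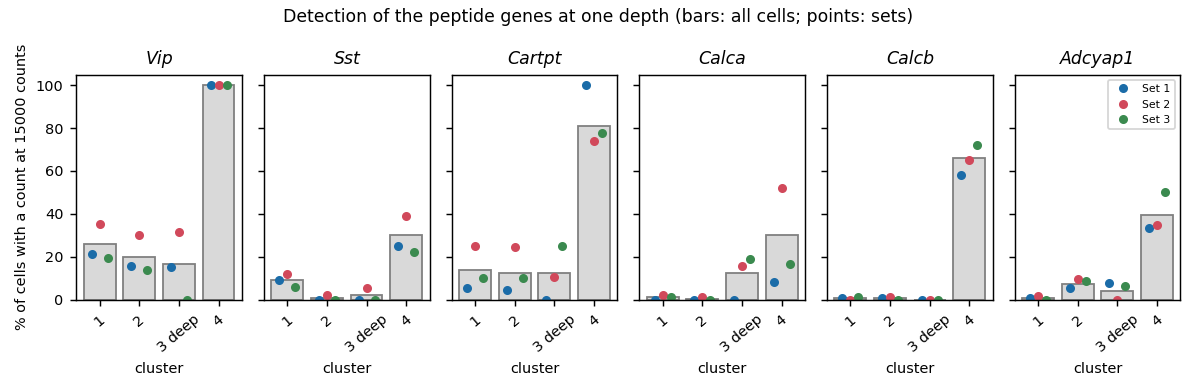
Percentage of cells with at least 1 count of each gene after each cell was thinned to 15000 counts, in clusters 1 and 2, the deep cells of cluster 3, and cluster 4. Bars cover all cells and points are Sets 1 to 3. Sst is seen in 9.26% of cluster 1 and 0.619% of cluster 2 cells, Adcyap1 in 0.817% and 7.43%, and Calcb in 66.0% of cluster 4 cells and in under 1% of each of the other groups.

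In the shallow cells of cluster 3 the mean levels of Vip and Cartpt per 10000 counts were above those of clusters 1 and 2, from few counts per cell. Sst and Adcyap1 had a count in 1 of these 53 cells each, Calca in 2 and Calcb in none. The Vip level of the shallow cells was 1.24, 4.68 and 2.58 counts per 10000 in the 3 sets, and Vip was positive in 26 of 53 cells. At a median of 2658 counts per cell, 1 count alone gives more than 1 count per 10000, so these are single counts or a few. They averaged 0.962 Vip counts per cell, with a count in 49.1% of cells, against 0.603 and 39.9% in cluster 1, 0.809 and 43.0% in cluster 2 and 1.02 and 54.2% in the deep cells of cluster 3. Cartpt was positive in 18 of them, 17 in Set 2. In the deep cells of cluster 3 Vip reached at most 0.576 counts per 10000 and Cartpt was positive in 1 of 48 cells, at 11.5.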

How the data were processed

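Single cells of 3 sets, each pooled from 2 mice, were sequenced from 3′ ends on 11 plates. The deposited values are natural log (ln) values, ln(1 + counts per 10000), which the authors computed per cell. Per the submitters' processing notes the tools were STAR 2.5.3a, featureCounts 1.5.3, SAMtools 1.4.1 and Seurat on GRCm38, and molecular identifiers are not mentioned in the sources used here. Cluster numbers are the authors' deposited labels. Whole counts were recovered from the ln values (100% of nonzero values within 0.001). Cells summed to 1536 to 107665 counts, with a median of 32923.5.

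A cell was positive at 1 count per 10000 or more. Intervals are exact Clopper-Pearson 95% binomial intervals and cover counting error only. For comparisons, log2(counts per 10000 + 1) was averaged over the cells of a set and side, with at least 3 cells on each, and fitted with limma 3.58.1 (R 4.3.3; trend and robust options, set as a block), for genes at a mean of 0.05 counts per 10000 or more. P-values were adjusted by Benjamini-Hochberg over all genes tested, with 0.05 as the threshold. Sides of one set come from the same pooled mice, which is the pairing. The fits left 2 residual degrees of freedom per gene for a division and 4 for the clusters. With borrowed spread the median was 20862 for Sst, 20930 for Cartpt, 51.4 for Calcb and 14.4 for the clusters. P-values therefore rest in large part on spread borrowed from other genes, and not on the spread between 3 sets alone. Divisions by Vip, Calca and Adcyap1 had too few cells per set and were not run. A count model was not the main test, as the deposited unit is ln; voom on summed recovered counts was an alternative. Scripts were tested on simulated data.

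The members, lists and tests were chosen with earlier results of these data known. Genes beyond the members were named by a rule: the 3 with the smallest p in each direction among those called with one sign in all sets, up to 4 called genes of each list with the smallest p for cluster 4, and the genes most like each member. List genes named for the divisions within cluster 4, and the genes of the 2 cells of low Vip, were chosen after their values were seen. Alternatives changed the threshold, depth, block, filter, pseudocount, weights, scaling and sets. The sort log was not used, since its wells are not tied to cells. Python 3.11.15, numpy 2.4.6, pandas 2.3.3 and scipy 1.17.1 were used.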

Additional observations from a re-analysis of the deposited data

Results flagged for a closer look

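The mean level of each member over the cluster 4 cells of each plate was looked at in Sets 1 and 2, which have 4 plates each (12 groups). A plate was singled out where its gap to the nearest plate exceeded Dixon's critical share of the whole range at 95%, which chance gives for about 1 group in 20, and 3 groups had one. Sst averaged 26.6 counts per 10000 on plate 4 of Set 1, from 2 cells at 53.1 and 0, where the next plate had 1.71. Sst averaged 15.2 on plate 5 of Set 2, from 5 cells, where the next plate had 2.86. Calca averaged 2.52 on plate 1 of Set 1, also from 2 cells, and its mean was 0 on the other 3 plates of the set.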

How the results depend on the processing

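Under the 7 alternatives the level in cluster 4 ran from 51.9 to 56.5 counts per 10000 for Vip, 3.49 to 5.13 for Sst, 13.6 to 21.4 for Cartpt, 0.495 (without Set 2) to 1.17 for Calca, 1.39 to 1.80 for Calcb and 0.382 to 0.525 for Adcyap1. Of 351 settings of 30 tested values, 283 kept direction and side of the threshold, 20 lost the call, 33 gained it and 15 turned direction; the cause was not tested. At 3 counts per 10000, 92.3% of Sst positive cells were Cartpt positive, 3.57% of cells not positive for Cartpt were Sst positive, and 100% of Calca positive and 8.00% of other cells were Calcb positive. Adcyap1 was positive in 46.8%, 0% and 11.8% of Cartpt positive cells at 1 count, at 3 counts per 10000 and thinned, and in 85.7% and 3.57% of the others at 1 count and at 3 counts per 10000. Leaving out a set gave 90.0% to 100% for Calcb among Calca positive cells.

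Genes called between Sst positive and other cells (352) numbered 173 thinned, 163 without the replicate block, 218 without the filter and 181 to 322 without a set. Those for Cartpt (165) numbered 60, 44 and 94 under the same 3 settings, 325 with Cartpt divided at 5 and 66 to 163 without a set. Those for Calcb (2) numbered 13 at 1 count, 16 with voom, 1 without the filter, 1 with a pseudocount of 0.1, and 2 to 33 without a set. With limma, none passed for Calcb without the block (0) or without the 2 cells of low Vip (0); in the reported fit 451 genes had an unadjusted p under 0.05 and voom called 16. For cluster 4 against clusters 1 and 2 the count fell from 2608 to 1118 without the replicate block. With voom the log2 difference between clusters 1 and 2 was 3.63 for Sst and -4.52 for Adcyap1.

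On the log2 scale, the difference by Sst turned to 0.52 for Calcb with voom, and without a set it ran from -0.10 to 0.47 for Calca and from -0.45 to 0.31 for Calcb. The difference by Cartpt turned to -0.34 for Vip without the 2 cells of low Vip and to -0.15 with Cartpt divided at 5, and without a set it ran from -0.28 to 0.24. For Calcb it turned to -0.060 with a pseudocount of 0.1 and to -0.0057 without the 2 cells, and without a set it ran from -0.22 to 0.59; for Calca that range was -0.14 to 0.74. The difference by Calcb turned to 0.20 for Cartpt when thinned and to 0.010 for Adcyap1 with a pseudocount of 0.1, and without a set these ran from -0.69 to 0.57 and from -0.15 to 0.00027.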
